A study of Mus musculus with 4 samples.

Results

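Toll-like receptors are membrane proteins through which cells of the innate immune system recognise molecules of microbes. Tlr1, Tlr2 and Tlr6 sit at the cell surface and bind bacterial lipopeptides, with Tlr2 paired to either of the others. Tlr4 binds lipopolysaccharide through the small secreted protein Ly96 (MD-2), to which Cd14 hands the ligand, while Tlr7, Tlr8, Tlr9 and Tlr13 sense nucleic acids inside endosomes. Most of these receptors signal through the adaptor Myd88 to NF-kB, and granulocytes use them to sense infection. The genes described here are these receptors with Cd14 and Ly96, 10 in all, matched by their exact name in the annotation of the array files. Of the 10, 9 had a probe, 1 probe each, among 28498 genes on the array, and all 9 probes were well above background on all 4 arrays. No probe carried the name Tlr13, which was not analysed here.

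The arrays measured RNA of male C57BL/6 mice, wild type (2 arrays) or knocked out for miR-223, a microRNA abundant in myeloid cells (2 arrays). In both groups, marrow was grown over 4 days in 40 ng/ml of GM-CSF, which promotes growth of granulocytes and macrophages, and the immature granulocytes that grew out were sorted. Whether the replicates are separate animals or cultures is not given, so p-values measure only the spread between these samples, which may be technical. The labels give neither the knockout allele nor the sort gate, and the miR-223 transcript itself was not analysed here, so the genotype labels were taken as given. Setting the genotypes side by side shows how receptor transcripts stand with and without miR-223. A level below is the log2 signal minus the 75th percentile of its array, so 0 is that percentile. A difference is knockout minus wild type, with limma's standard error (SE). Levels of different genes are not compared, since each rests on a probe of its own.

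The mature strands of miR-223 are printed to show the seed, bases 2 to 8 in capitals, through which the microRNA pairs with target transcripts. They come from RefSeq (GRCm38.p6), where the 3p strand lies at chrX:96242884-96242905 and the 5p strand at chrX:96242842-96242864, both on the plus strand.
mmu-miR-223-3p: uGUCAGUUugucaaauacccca
mmu-miR-223-5p: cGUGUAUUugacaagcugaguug
The DNA letters that pair with the 3p seed, AACTGAC, were searched on the printed strand of every probe. They stood in 0 of the 9 probes and in 153 of 41174 probes on the array (0.372%). A probe covers only 60 bases of a transcript, so this says nothing about the rest of these transcripts.

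The Tlr1 and Tlr2 probes are printed because they were the most alike of the 9 and belong to partner receptors. Capitals mark the bases that match when the probes are aligned without gaps, 29 of 47 overlapping bases (61.7%). Counted over the full 60 bases of a probe, this pair matched at 29 and each other pair of the 9 at no more than 25. On mm9, the Tlr1 probe lies at chr5:65316115-65316174 and the Tlr2 probe at chr3:83640344-83640403, both on the minus strand.
Tlr1: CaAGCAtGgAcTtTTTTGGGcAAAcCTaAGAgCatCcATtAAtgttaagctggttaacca
Tlr2: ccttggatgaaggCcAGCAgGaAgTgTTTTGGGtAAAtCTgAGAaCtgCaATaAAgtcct
The Ly96 probe is printed because its 60 bases span 3273 bases of mm9, chr1:16696289-16699561 on the plus strand, so it is split in the genome and matches spliced RNA.
Ly96: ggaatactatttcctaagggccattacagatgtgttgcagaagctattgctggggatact

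None of the 9 genes passed limma's adjusted p of 0.05 between genotypes, and neither did any of the 16779 genes tested (0%). At an unadjusted p under 0.05, limma had 2275 of all genes (13.6%), 1348 higher and 927 lower in the knockout, and 1 of the 9, Tlr9. Of the 9 differences, 6 were above 0 and 3 below, from -0.33 for Tlr2 to 0.37 for Tlr9, though Tlr1 and Tlr8 were below 0 with spike-in scaling or another background correction. Tlr7, Cd14 and Ly96 also changed sign with 1 array left out. The median of the 9 was 0.07, beside 0.03 over all genes, of which 54.8% were above 0. With spike-in scaling these medians were -0.03 and -0.07, with normexp background correction the median of the 9 was -0.04, and with 1 array left out it ran from -0.13 to 0.34. The median size of the difference was 0.15 for the 9 and 0.18 for all genes. With 2 arrays per group, the median SE of the 9 differences was 0.19.

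In 4 of the 9 genes the knockout arrays lay apart from the wild-type arrays: both above in Tlr6 and Tlr9, both below in Tlr2 and Tlr4. Over all genes tested, the knockout pair was entirely above the wild-type pair in 28%, entirely below in 20.1%, and apart in either direction in 48.1%. The share among the 9 was thus close to that of all genes. Fewer arrays separate more easily by construction, and the count was 7 of 9 without wild-type array 1 and 8 of 9 without wild-type array 2. The share over all genes was not counted with 1 array left out, so nothing is read from these counts. The plot of differences shows the 9 beside the spread of all genes.

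**Figure D1:**
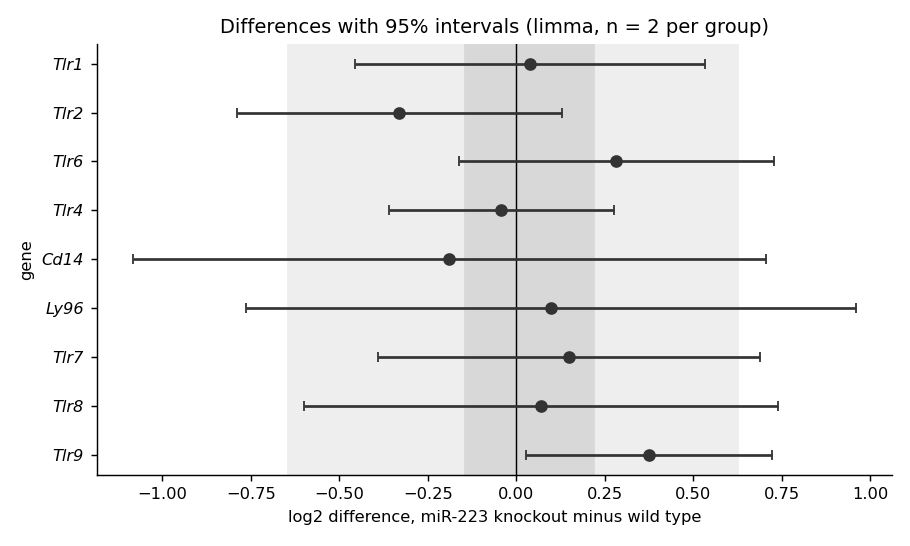
Knockout minus wild-type log2 difference (x axis) of the 9 genes (y axis), with limma's 95% confidence interval as bars and n = 2 arrays per group. The dark band holds the middle of all 16779 differences (-0.14 to 0.22, 25th to 75th percentile) and the light band the 5th to 95th percentile (-0.64 to 0.63); the interval of Tlr9 alone stays above 0.

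Of the lipopeptide receptors at the cell surface, Tlr2 was lower and Tlr6 higher on both knockout arrays, and Tlr1 overlapped between genotypes; none of them passed the adjusted test. Tlr2, the partner common to these pairs, was at 3.95 and 4.25 on the wild-type arrays and at 3.66 and 3.88 on the knockout arrays. Both knockout arrays were thus below both wild-type arrays. The difference was -0.33 ± 0.17 (SE, n = 2 per group), 1.26-fold higher in wild type, with a 95% interval from -0.79 to 0.13 and limma's adjusted p = 0.471. The distance between its wild-type arrays, 0.29, was nearly as large as the difference between genotypes.

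The Tlr2 probe was spotted 10 times on each array, so its technical spread could be measured. Before scaling between arrays, the spots of wild-type array 1 ran from an intensity of 7659 to 9583 with a median of 9296. On wild-type array 2, after 1 flagged spot was left out, they ran from 8373 to 9998 with a median of 9353. The knockout spots were dimmer, from 5739 to 6829 (median 6726) on array 1 and from 7014 to 7502 (median 7309) on array 2. Within an array the log2 values of these spots had an SD of 0.09, 0.08, 0.09 and 0.03, in the order wild type 1, wild type 2, knockout 1, knockout 2. The spread of spots within an array was therefore smaller than the distance between replicate arrays, 0.29 and 0.23.

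**Figure D2:**
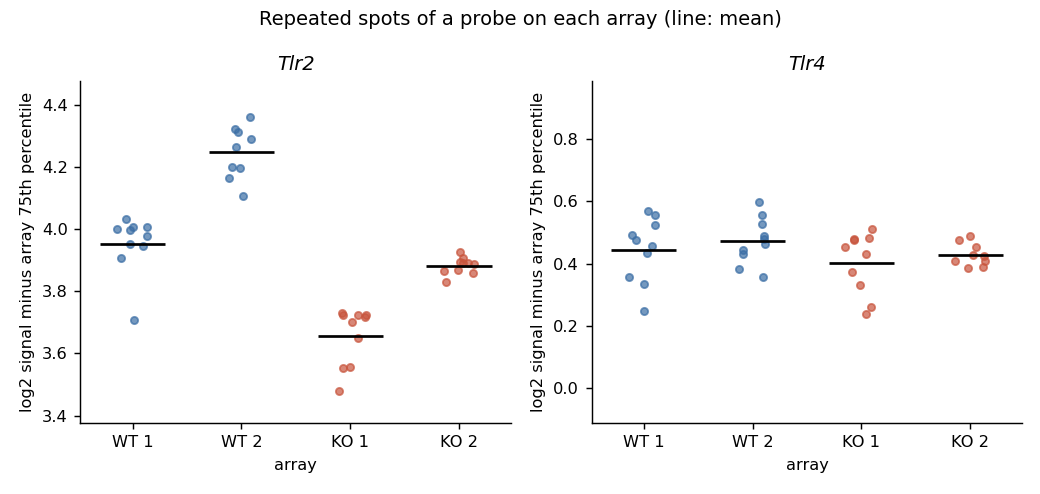
Log2 signal minus the array's 75th percentile (y axis) of each used spot of the Tlr2 and Tlr4 probes on the 4 arrays (x axis), with the mean as a line; each probe has 10 spots per array, 1 of them flagged and left out on wild-type array 2 (Tlr2) and knockout array 2 (Tlr4). The Tlr2 spots of wild-type array 2 lie above those of wild-type array 1 and of both knockout arrays, whereas the Tlr4 spots of all 4 arrays overlap.

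Tlr6, which pairs with Tlr2 to bind diacylated lipopeptides, was at -0.31 and -0.07 in wild type and at -0.03 and 0.22 in the knockout. Its knockout values were both higher than its wild-type values, the nearest of them by little. The difference was 0.28 ± 0.17 (SE), 1.22-fold, with a 95% interval from -0.16 to 0.73 and limma's adjusted p = 0.515. The Tlr6 probe lies at chr5:65344365-65344424 on the minus strand, and no protein-coding gene lies between Tlr6 and Tlr1 in the RefSeq table.

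Tlr1, the partner of Tlr2 for triacylated lipopeptides, was at -3.07 and -2.73 in wild type and at -2.99 and -2.74 in the knockout. The groups overlapped, and the difference was 0.04 ± 0.19 (SE) with an interval from -0.46 to 0.53 and limma's adjusted p = 0.946. Its sign is not settled: it was -0.17 after another background correction (normexp) and -0.06 with spike-in scaling. The Tlr1 signal, an intensity of 64.9 to 74.1, was far below the 75th percentile of its arrays, 486 to 586.

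Within the receptor complex for lipopolysaccharide, Tlr4 hardly varied between arrays, while Cd14 and Ly96 varied more between replicates than between genotypes. Tlr4, the signalling chain (probe at chr4:66503724-66503782, plus strand), was at 0.44 and 0.47 in wild type and at 0.40 and 0.43 in the knockout. All 4 arrays lay between 0.40 and 0.47, with the knockout arrays just below the wild-type arrays, an order that was lost in the authors' deposited log2 values. The difference was -0.04 ± 0.12 (SE) with limma's adjusted p = 0.901. Its 95% interval from -0.36 to 0.28 was the narrowest of the 9 and, as a fold, ran from 0.779 to 1.21. The Tlr4 spots, also 10 per array, varied by an SD of 0.10, 0.07, 0.10 and 0.04 in the same order of arrays. A further probe, which the file's description ties to Tlr4 but which carries a transcript number as its name and was not matched by the rule, was well above background on 0 arrays, with intensities of 1.80, 3.19, 1.83 and 1.58.

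Cd14, the co-receptor that delivers lipopolysaccharide (probe at chr18:36884969-36885028, minus strand), was at 3.56 and 3.88 in wild type and at 3.09 and 3.97 in the knockout. The knockout arrays lay on either side of the wild-type arrays, and their SD of 0.62 was the largest within a group. The difference was -0.19 ± 0.33 (SE), with a 95% interval from -1.08 to 0.70 and limma's adjusted p = 0.831. It turned to 0.25 without knockout array 1 and was -0.63 without knockout array 2, so its direction rests on a single array.

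Ly96, which binds the lipid part of lipopolysaccharide within the Tlr4 complex, was at -0.66 and 0.14 in wild type and at -0.35 and 0.03 in the knockout. Here the wild-type arrays enclosed both knockout arrays, with an SD of 0.57 in wild type and 0.27 in the knockout. The difference was 0.10 ± 0.32 (SE), with a 95% interval from -0.76 to 0.96 and limma's adjusted p = 0.917. It was -0.30 without wild-type array 1, 0.50 without wild-type array 2 and -0.10 without knockout array 2, so its direction too rests on single arrays. Differences of the size seen for Tlr2 or Tlr9 would lie well inside the intervals of Cd14 and Ly96.

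Among the endosomal receptors, Tlr9 was higher on both knockout arrays, while Tlr7 and Tlr8 overlapped between genotypes. Tlr9, the receptor for unmethylated CpG DNA (probe at chr9:106128979-106129038, plus strand), was at 0.60 and 0.67 in wild type and at 1.08 and 0.93 in the knockout. Each knockout value exceeded each wild-type value, and the distance between genotypes exceeded that between replicates, 0.06 and 0.15. The intensities before scaling were 891 and 771 in wild type and 1090 and 943 in the knockout. The difference was 0.37 ± 0.13 (SE), 1.30-fold with a 95% interval from 1.02 to 1.65. Limma's unadjusted p was 0.0398 and its adjusted p 0.347, the smallest of the 9, which placed it at rank 1926 of 16779 genes by p. With quantile normalization (0.0395), normexp (0.0284) or the authors' deposited log2 values (0.0312), limma's unadjusted p stayed under 0.05. Limma's unadjusted p was 0.165 with spike-in scaling, 0.101 with dim probes tested as well, and 0.0687 to 0.222 with 1 array left out, all above 0.05.

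Tlr7, a receptor for single-stranded RNA (probe at chrX:163743189-163743248, minus strand), was at -0.46 and -0.09 in wild type and at -0.28 and 0.03 in the knockout. The groups overlapped, and the difference of 0.15 ± 0.20 (SE) had an interval from -0.39 to 0.69 and limma's adjusted p = 0.774. Tlr8, its neighbour with no protein-coding gene between them in the RefSeq table (probe at chrX:163680715-163680774, minus strand), was at -4.77 and -4.15 in wild type and at -4.49 and -4.29 in the knockout. Its probe was dim, with intensities of 21.4 to 27.4. The difference of 0.07 ± 0.25 (SE) had an interval from -0.60 to 0.74 and limma's adjusted p = 0.925, and its sign turned to -0.04 with normexp and to -0.03 with spike-in scaling.

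**Figure D3:**
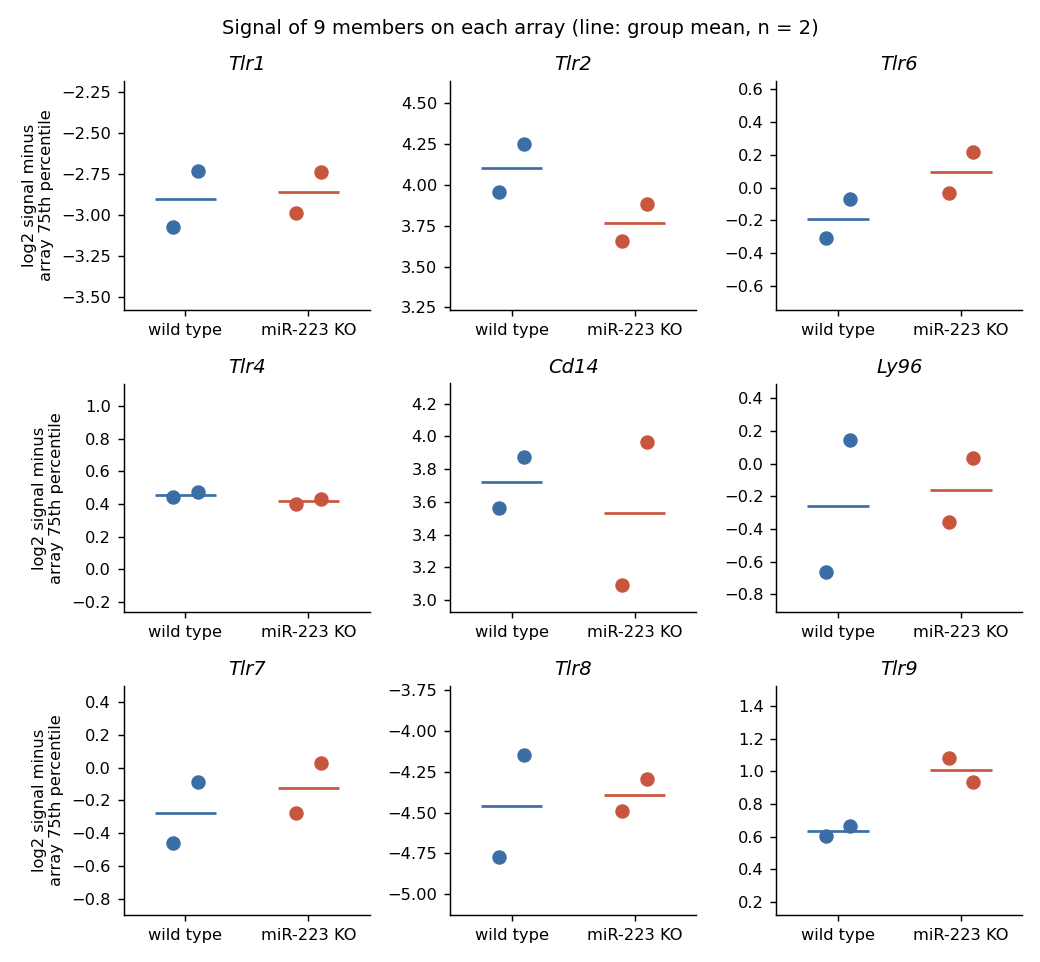
Log2 signal minus the array's 75th percentile (y axis) on each of the 4 arrays, as points grouped by genotype (x axis), with the group mean as a line (n = 2); every panel spans the same number of log2 units at its own height. The knockout points of Tlr9 (0.93 and 1.08) lie above the wild-type points (0.60 and 0.67), while those of Cd14 lie 0.87 apart.

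The replicate number went with the level of most of these genes. Array 2 was above array 1 in wild type for 9 of 9 genes and in the knockout for 8 of 9, Tlr9 being the exception. Over all genes tested the shares were 49% and 43.1%, and array 2 was the higher in both groups for 24% of genes against 8 of these 9. This distance ran from 0.03 (Tlr4) to 0.80 (Ly96) between the wild-type arrays. In 5 of the 9, Tlr1, Tlr7, Tlr8, Cd14 and Ly96, the larger distance between replicates exceeded the difference between genotypes, as it did for 66% of all genes.

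The 5 tested genes whose pattern was most like that of Tlr9 over the 4 arrays were Fam199x, Tcea1, Muc6, Pi4k2b and Ptgr1. Likeness was the root mean square difference of log2 levels after subtraction of each gene's wild-type mean, and it ran from 0.0054 for Fam199x to 0.016 for Ptgr1. Their own differences between genotypes were 0.36 (Muc6) to 0.39 (Pi4k2b), with limma's adjusted p from 0.336 to 0.365. With 4 arrays, such closeness is a description of these arrays only.

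The remaining genes of the pathway were taken by role. Of 4 other Toll-like receptors, only Tlr5, the flagellin receptor, could be tested, at -5.60 and -5.20 in wild type and -5.25 and -4.25 in the knockout, a difference of 0.65 ± 0.38 (SE, limma's adjusted p = 0.511). That difference was 0.19 with normexp, 0.15 without knockout array 2 and 1.15 without knockout array 1. The probes of Tlr3 were well above background on 0 and 1 of the arrays, and no probe carried the names Tlr11 or Tlr12. Of 13 genes that accompany the receptors or carry them to endosomes, 0 passed limma's adjusted p of 0.05 and 3 had an unadjusted p under 0.05. Of these 13, 5 were higher and 8 lower in the knockout, with a median of -0.07, and 4 were apart above and 4 apart below. Over all genes 13.6% had an unadjusted p under 0.05, and 48.1% were apart in either direction. Without wild-type array 2 the median of the 13 was 0.05, with 7 higher and 6 lower.

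The largest of those differences was that of Lgmn, a protease that cleaves Tlr9 in endolysosomes. It was at 1.49 and 1.25 in wild type and at 0.45 and 0.06 in the knockout, a difference of -1.11 ± 0.20 (SE, limma's adjusted p = 0.243). Slc15a4, an endolysosomal transporter needed for Tlr7 and Tlr9 signalling, was at 2.68 and 2.80 in wild type and at 3.26 and 3.44 in the knockout. Its difference was 0.61 ± 0.14 (SE, limma's adjusted p = 0.263). Cd180, a relative of Tlr4, and Ly86, its MD-1 partner and a relative of Ly96, were both lower in the knockout on both arrays. Ly86 differed by -0.95 ± 0.26 (SE) and Cd180 by -0.65 ± 0.26 (SE), or -0.85 with its other probe, with limma's adjusted p of 0.298 and 0.387.

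The adaptors and kinases that relay the signal lay close to 0. Of 17, Sarm1 was well above background on 0 arrays. Of the 16 tested, 9 were higher and 7 lower in the knockout (4 and 12 with spike-in scaling), with a median of 0.02 (-0.07), and 0 had an unadjusted p under 0.05 in limma. The 4 with the smallest p were Map3k7, the kinase TAK1, at 0.26 ± 0.14 (SE), Pik3ap1, a phosphoinositide 3-kinase adaptor, at 0.26 ± 0.14, Tab3, a partner of TAK1, at 0.24 ± 0.16, and Tab1, another, at -0.11 ± 0.16. The smallest adjusted p of the list was 0.484. The other probes of Pik3ap1 gave 0.20 and 0.08. Probes of a gene could differ: Traf6 was at -0.06 on the probe used and 0.39 on another, and Irak4 at 0.0005 and 0.29. With all probes of a gene averaged, 11 of the 16 were higher and 5 lower, with a median of 0.06.

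Of 9 negative regulators, 5 were higher and 4 lower (3 and 6 with spike-in scaling), with a median of 0.05 (-0.04) and 0 at an unadjusted p under 0.05 in limma. Atf3, a transcription factor that dampens cytokine genes, was at 1.94 and 3.88 in wild type and at 1.20 and 1.35 in the knockout, a difference of -1.63 ± 0.67 (SE, limma's adjusted p = 0.393). Wild-type array 2 held the highest Atf3 value, and wild-type array 1 lay closer to the knockout arrays than to it. Irak3, the inhibitory kinase IRAK-M, differed by 0.34 ± 0.17 (SE), with 0.54 and 0.53 on its other probes, and Sigirr, a receptor that holds back this signalling, by 0.22 ± 0.12 (SE). Dusp1, a phosphatase of MAP kinases, differed by -1.28 ± 0.87 (SE), with overlapping groups.

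Genes that Toll-like receptor signalling is known to induce had the widest differences of these lists. Of 21, 5 were well above background on 0 arrays (Il12b, Il23a, Il10, Nos2, Ifnb1), and of the 16 tested 13 were lower and 3 higher in the knockout (15 and 1 with spike-in scaling), with a median of -0.47. Among them 6 had an unadjusted p under 0.05 and 0 an adjusted p under 0.05 in limma. Of the 16, 6 were apart below and 1 apart above. The 1 apart above, Il12a, was also among the 6 with an unadjusted p under 0.05. It was higher by 1.30 ± 0.36 (SE, limma's adjusted p = 0.302). Over all genes the shares were 13.6% at an unadjusted p under 0.05, 20.1% apart below and 28% apart above. Cxcl1, a neutrophil-attracting chemokine, was at -0.36 and 1.41 in wild type and at -2.76 and -2.23 in the knockout, a difference of -3.03 ± 0.63 (SE, limma's adjusted p = 0.256). Il6, an inflammatory cytokine, was at -0.35 and -0.37 in wild type and at -1.76 and -3.13 in the knockout, a difference of -2.09 ± 0.48 (SE). Ccl4, another chemokine, differed by -1.18 ± 0.26 (SE), and Ptgs2, the inducible cyclooxygenase, by -2.33 ± 0.53 (SE) or -2.86 with its other probe.

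All of Cxcl1, Il6, Ccl4 and Ptgs2 had both knockout arrays below both wild-type arrays. The size of the median depended on single arrays: it was -0.13 without wild-type array 2, with 10 of 16 lower, -0.28 without knockout array 1, -0.84 without wild-type array 1 and -0.95 without knockout array 2. Markers of macrophages and monocytes (14 of 16 lower, median -1.14) and of mast cells and basophils (6 of 7 lower, median -1.26) were lower in the knockout alongside these genes, and their part in this result was not tested. These 2 medians were -0.79 and -0.50 without knockout array 2, and -1.41 and -2.16 without knockout array 1.

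**Figure D4:**
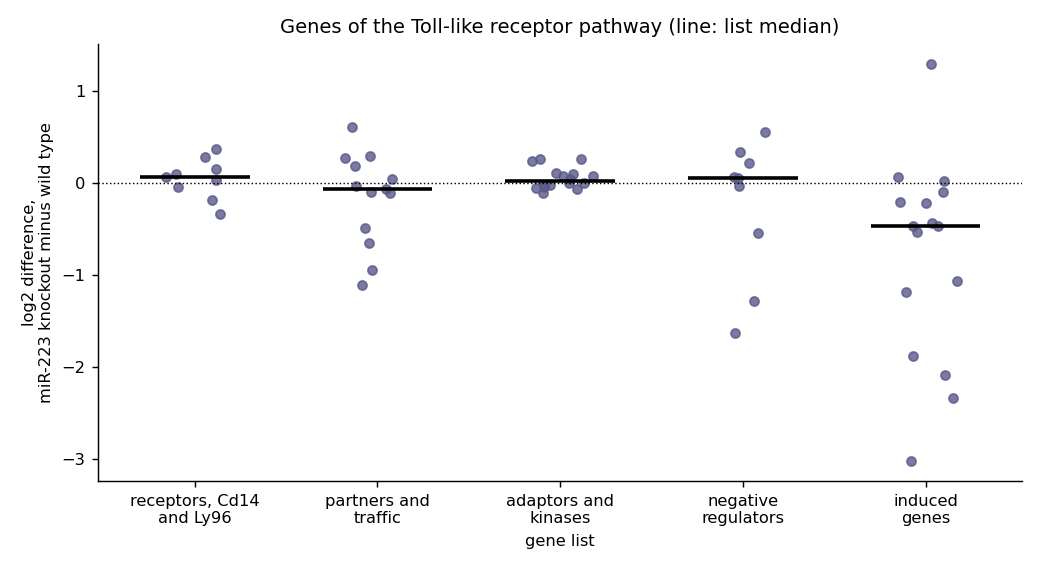
Knockout minus wild-type log2 difference (y axis) of each tested gene of the lists named on the x axis, as points, with the median of the list as a line. The medians are 0.07 for the receptors with Cd14 and Ly96, 0.02 for adaptors and kinases and 0.05 for negative regulators, all 3 below 0 with spike-in scaling, -0.07 for partners and traffic and -0.47 for induced genes, and 0 of these genes passed limma's adjusted p of 0.05.

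In bulk RNA, fewer cells of a type and less RNA per cell cannot be told apart. All 14 immature granulocyte markers found by name (of 16 listed), such as Mpo, Ltf and S100a8, were well above background on all 4 arrays. Of the 14, 11 were higher and 3 lower in the knockout (8 and 6 after quantile normalization). Mpo was among the lower, at -0.43, while Ltf differed by 0.15 (-0.01 with its other probe) and S100a8 by 0.26. The summed level of the 14, in multiples of the array's 75th percentile, was 3822 and 4043 in wild type and 4171 and 4619 in the knockout. Markers of macrophages and monocytes, cells that also carry Cd14, Ly96 and Toll-like receptors, were all 16 above background. Of these 14 were lower and 2 higher in the knockout, with a median of -1.14 and 10 at an unadjusted p under 0.05 in limma, beside 54.8% higher and 13.6% at that p over all genes. Mertk differed by -2.04 ± 0.21 (SE) and Adgre1, a surface antigen of macrophages, by 0.75 ± 0.24 (SE). The summed level of the 16 overlapped between groups, at 61.8 and 73.5 in wild type and 61.2 and 64.3 in the knockout. Such a sum weighs bright probes most, and the brightest, Fcgr1, was 1 of the 2 that were higher (0.19 ± 0.12, SE).

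Dendritic cell markers summed to 179 and 195 in wild type and 188 and 127 in the knockout (9 of 11 lower, but 6 of 11 without knockout array 2), and mast cell and basophil markers to 37.3 and 43.7 against 27.9 and 19.6 (6 of 7 tested lower). Eosinophil markers summed to 6.71 and 45.1 in wild type and 12.8 and 17.3 in the knockout, wild-type array 2 being the highest. Of the 4 tested, 2 were higher and 2 lower in the knockout. Prg2 was at 2.17 and 5.11 in wild type and at 3.16 and 3.63 in the knockout. Siglecf was higher on both knockout arrays, at 0.13 and 0.14 in wild type and at 0.88 and 0.94 in the knockout. B cell markers summed to 2.21 and 1.52 in wild type and 2.84 and 2.35 in the knockout, higher on both knockout arrays (2 of 4 tested higher, 2 lower). T and NK cell markers summed to 0.272 and 0.522 in wild type and 0.329 and 0.308 in the knockout. Of the megakaryocyte markers tested, Itga2b differed by -1.64 ± 0.39 (SE) and Pf4 by -1.32 ± 0.54 (SE), both lower on both knockout arrays, and Gp9 by 0.21 ± 0.14 (SE). Pax5, Ebf1 and Cd3g were well above background on 0 arrays. The part of these markers in the values of the Toll-like receptors, Cd14 and Ly96 was not tested.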

How the data were processed

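Cy3-labelled RNA was hybridised to 4 Agilent mouse arrays (design 014868), which share 1 slide. The deposited intensity per spot was made by the authors with Agilent Feature Extraction 10.5.1.1, per the file headers, with no scaling between arrays. The authors' deposited log2 values equalled log2 intensity plus a constant per array (within 0.01 for 99.8% of probes, column medians 5.03), and served as an alternative. How that constant was chosen is not given in the sources used here. Control and flagged spots were left out, spots of a probe averaged on the log2 scale, and each array's 75th percentile subtracted. Between 57.6% and 63.5% of the 41174 probes passed the background test on an array, and 0 were saturated. Precision is limited by having 4 arrays.

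Probes were named through RefSeq accessions (GRCm38.p6): 26888 matched by systematic name and 110 by another accession, and 14176 kept the file's name. RefSeq coordinates were used only for miR-223 and for the order of neighbouring genes, and probe coordinates are those of the array annotation (mm9). Each gene took its probe of highest mean, if well above background on both arrays of a group. Genotypes were compared with limma 3.58.1 in R 4.3.3 (jsonlite 2.0.0 and the data.table package, version 1.17.8), in a two-sided fit. Its p-values were adjusted by Benjamini-Hochberg across 16779 genes. On simulated data with known changes, only the estimated differences of this fit were checked, not its p-values. Named genes are the 10 receptors and co-receptors, up to 4 genes per pathway list with the smallest p, at most 3 per marker list, genes not above background, and the 5 most like Tlr9. Il12a was added for its direction, and Traf6 and Irak4 for unlike probes. Genes and lists were chosen with earlier results of these data known. The summed level of 1 marker list is not reported here.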

Additional observations from a re-analysis of the deposited data

How the results depend on the processing

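In each of 13 alternatives (other scaling, background correction, filters, probe rules, the authors' deposited log2 values, a replicate block, or 1 array left out), 0 of the 9 genes passed limma's adjusted p of 0.05, with the smallest adjusted p between 0.313 and 0.827. The count over all genes was 3 with every probe tested on its own and 4 with spike-in scaling, which rested on 8 spike-in probes, and 0 otherwise. Spike-in scaling moved the median of all genes by -0.098, and testing dim probes as well moved it by -0.10. The direction held in all 13 for Tlr2 (-0.48 to -0.18), Tlr4 (-0.14 to -0.02), Tlr6 (0.16 to 0.41) and Tlr9 (0.28 to 0.45). Leaving out 1 array could not turn it, since the knockout arrays of these genes lay apart from the wild-type arrays. With 1 probe per gene, the filters, probe rules and block gave the main value again. Only other scaling, background correction and the authors' deposited values could have turned it. Tlr1 turned to -0.17 with normexp and -0.060 with spike-in scaling, and Tlr8 to -0.044 and -0.027. With 1 array left out, Tlr1 ran from -0.13 to 0.21, Tlr7 from -0.039 to 0.34, Tlr8 from -0.24 to 0.38, Cd14 from -0.63 to 0.25 and Ly96 from -0.30 to 0.50. The median of the 9 then ran from -0.13 to 0.34, and the number of the 9 with arrays apart from 5 to 8. No share over all genes was counted beside that number. Apart from fewer arrays, the cause was not tested. With the replicate number as a block, 0 genes passed and Tlr9 had an unadjusted p of 0.0621 (limma, adjusted p 0.358), so that the 1 unadjusted call among the 9 was lost, as it was with spike-in scaling (0.165), with dim probes tested as well (0.101) and with any 1 array left out (0.0687 to 0.222). That call was kept with quantile normalization (limma's unadjusted p 0.0395), normexp (0.0284) and the authors' deposited log2 values (0.0312). It was also kept when only probes above background on all arrays were tested (0.0345), and with the other probe rules (0.0398 and 0.0410). Over all genes, deviations of same-numbered arrays from their group means correlated at 0.174. With only these pairs, the numbers are not shown to pair the samples. Each single-array fit assumes that the lone array varies like the other group.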
